A study of Mus musculus with 6 samples.

Results

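Expression of 10 cathepsin genes, the proteases that break down proteins in the lysosome, was examined in the RNAseq libraries of J110 and SSM3 cells. The members were chosen by name, as Ctsa, Ctsb, Ctsc, Ctsd, Ctsf, Ctsh, Ctsk, Ctsl, Ctss and Ctsz, and make up 10 of the 52636 genes in the count table. Both are mouse mammary tumour cell lines, with 3 biological replicates sequenced of each. J110 is a line from mice with an AIB1 transgene, a cDNA whose promoter, the MMTV LTR, is active in mammary epithelium. SSM3 cells came from mammary tumours of genetically modified 129SvEv mice. Each group is 1 cultured line with no other cells of a tumour around it, and no estrogen or tamoxifen treatment is given for these libraries. Both were grown in DMEM/F12 with insulin and hydrocortisone, and SSM3 cells also had more serum and CO2, glutamine, β-mercaptoethanol and holo-transferrin, so line and culture cannot be told apart.

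Cathepsins are made as inactive precursors, are tagged with mannose 6-phosphate in the Golgi and are carried by mannose 6-phosphate receptors to the acidic lysosome, where the propeptide is removed. Most are cysteine proteases of the papain family, while cathepsin D is an aspartic protease and cathepsin A a serine carboxypeptidase. Cystatins block the cysteine members. In breast cancer cells some cathepsins are also secreted and can cut the matrix, and cathepsin D is known as a gene that estrogen induces in human MCF7 cells.

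Reads came from the 3′ ends of transcripts, and each library held between 4200785 and 5416305 counts. Levels are given as CPM, read counts scaled to the size of the library with the TMM factors of edgeR. They were not divided by transcript length, because the kit reads 1 end of each transcript. The floor of a line means that none of its libraries had more than 3 counts of a gene, equal to between 0.578 and 0.668 CPM, and it covers counting error only. A ribosomal RNA locus on chromosome 17 took from 15.1% to 17.2% of J110 counts and from 0.779% to 1.27% of SSM3 counts, and leaving it out changed no call of a cathepsin. Ncoa3, which encodes AIB1, had a log2 fold change of SSM3 over J110 of 0.91, so that it was not higher in the libraries labelled as the AIB1 transgenic line. The sources used here do not say whether the transgene keeps the 3′ end that was sequenced, so this gene does not check the labels, and every direction given for J110 and SSM3 rests on the labels of the libraries. Among epithelial markers, Krt8 and Krt18 were counted at 1275 and 1430 CPM on average in J110 and at 2270 and 970.0 CPM in SSM3, while Epcam and Cdh1 were nearly absent from J110, where Epcam had 2, 1 and 7 counts and Cdh1 21, 11 and 28, beside at least 2376 and 6019 in each SSM3 library. Traces of the other line were looked for in genes with at least 200 counts in every library of that line and none in the remaining libraries of the same line as the one examined. Their level was between 0.029% and 0.471% of the other line's, with the most in SSM3 replicate 2. In the counts as deposited, the lowest level of a tested cathepsin against the other line was that of Ctsh in libraries labelled SSM3, at 15.0% of its J110 level.

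Of the 10 cathepsins, 7 passed the filter on low counts and 3 were at the floor in both lines. Of the 7, 2 were higher in libraries labelled SSM3 (Ctsd and Ctsz) and 5 were lower (Ctsa, Ctsb, Ctsc, Ctsh and Ctsl) at an adjusted p below 0.05 in the quasi-likelihood test of edgeR, whose standard error is written SE here. The same rule called 77.9% of the 12284 genes tested, 38.6% as higher and 39.2% as lower, and against that share 7 calls among 7 genes say little that is particular to cathepsins. For all 7 genes J110 and SSM3 libraries were fully separated, as they were for 79.6% of all genes tested. The sizes differed more than the calls did, from a log2 fold change (SSM3 over J110) of -2.73 for Ctsh to 2.07 for Ctsz, with a median of -0.55 beside -0.014 over all genes tested. When a change beyond 1.5-fold was required (glmTreat), Ctsb, Ctsc, Ctsh and Ctsz passed, and Ctsa, Ctsd and Ctsl did not, where this test called 51.6% of all genes, 25.4% as higher and 26.2% as lower.

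**Figure D1:**
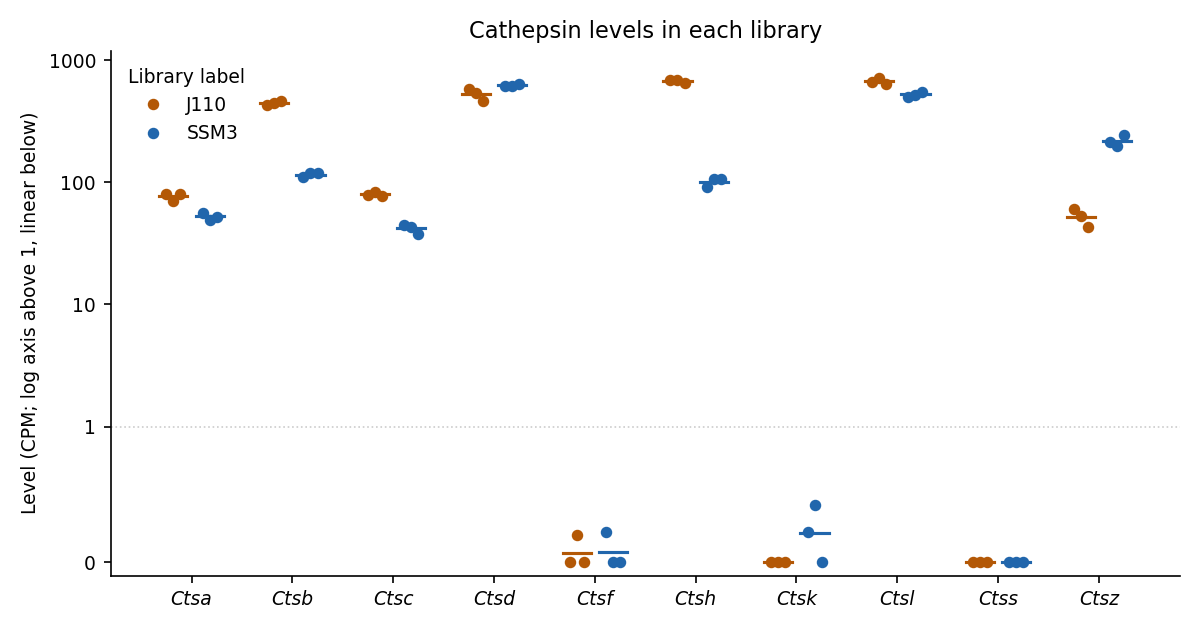
Level of each cathepsin in CPM (vertical axis, logarithmic above 1 CPM and linear below) in each library, with points for libraries and bars for the mean of 3 libraries. Ctsb and Ctsh sit far lower in the SSM3 libraries, Ctsz sits higher, Ctsd and Ctsl differ little, and Ctsf, Ctsk and Ctss lie at or near 0 in both lines.

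Ctsd (ENSMUSG00000007891, mm10 chromosome 7 from 142375911 to 142388038, reverse strand) encodes the aspartic endopeptidase of the lysosome. It was counted at 583, 538 and 466 CPM in the libraries labelled J110 and at 621, 618 and 638 CPM in those labelled SSM3. The lowest SSM3 library lay above the highest J110 library, but by less than the J110 libraries differed from each other. The log2 fold change was 0.24 (SE 0.079, adjusted p = 0.0105, edgeR), and 84.2% of the genes tested had a larger change in either direction. The spread was uneven: the coefficient of variation of Ctsd was 11.2% in J110, where counting alone gives 1.94%, and 1.70% in SSM3. Without J110 replicate 3, the lowest library, edgeR gave 0.15 (adjusted p = 0.0785), and without SSM3 replicate 2 as well it gave 0.17 (adjusted p = 0.0808). Over all alternatives to the processing the adjusted p of Ctsd ranged from 0.00029, with library size scaling, to 1.0, with glmTreat. In J110, replicate 3 was the lowest library for 5 of the 7 cathepsins.

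Ctsl (ENSMUSG00000021477, chromosome 13 from 64359337 to 64370890, reverse strand) encodes cathepsin L, a cysteine endopeptidase of broad specificity. Its level was 671, 720.0 and 644 CPM in J110 and 501, 523 and 553 CPM in SSM3. All SSM3 libraries were below all J110 libraries, with a difference of -0.37 on the log2 scale (SE 0.070, adjusted p = 0.000147). With library size scaling in place of TMM, which shifts the median of all genes from -0.014 to 0.16, the log2 fold change of Ctsl was -0.19 and that of Ctsd 0.41, in the same directions as with TMM.

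Ctsb (ENSMUSG00000021939, chromosome 14 from 63122462 to 63145923, forward strand) encodes cathepsin B, which cuts within proteins and also removes dipeptides from their carboxyl end. It was counted at 434, 452 and 463 CPM in J110 and at 111, 118 and 119 CPM in SSM3. The lines lay far apart and their libraries close together, with a coefficient of variation of 3.22% in J110 and 3.70% in SSM3. The log2 fold change was -1.95 (SE 0.072, adjusted p = 3.30e-13), which places SSM3 at 25.8% of the J110 level. This size is uncertain because of Fdft1 on the other strand, whose counts exceed those of Ctsb in SSM3. Leaving out each library in turn gave values from -1.99 to -1.92.

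Among the exopeptidases, Ctsh (ENSMUSG00000032359, chromosome 9 from 90054152 to 90076089, forward strand) had the largest change of the family in the counts as deposited. Cathepsin H is an aminopeptidase of the papain family. Its level was 691, 687 and 654 CPM in J110 and 92.4, 106 and 107 CPM in SSM3. The log2 fold change was -2.73 (SE 0.078, adjusted p = 1.28e-14), a 6.65-fold lower level in SSM3 that 16.0% of the genes tested exceeded in size. Ctsh shares no exon with another counted gene.

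Ctsz (ENSMUSG00000016256, chromosome 2 from 174427493 to 174439039, reverse strand), the gene of the carboxypeptidase cathepsin Z, went the other way. It was counted at 60.7, 52.6 and 43.0 CPM in J110 and at 214, 197 and 246 CPM in SSM3. Every SSM3 library was more than 3 times as high as any J110 library, with a difference of 2.07 on the log2 scale (SE 0.12, adjusted p = 7.20e-11), or 4.19-fold. Its size is uncertain because of Nelfcd on the other strand, and was 3.39 on the log2 scale with the counts of Nelfcd subtracted in both lines. The coefficient of variation was 17.04% in J110, where counting alone gives 6.17%, and 11.3% in SSM3, where it gives 3.10%, and J110 replicate 3 was the lowest of all.

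Ctsc (ENSMUSG00000030560, chromosome 7 from 88278085 to 88310888, forward strand) encodes dipeptidyl peptidase I, which activates serine proteases of immune cell granules. Its level was 79.2, 83.1 and 78.0 CPM in J110 and 45.2, 43.3 and 37.6 CPM in SSM3. SSM3 lay at 52.4% of the J110 level, with a difference of -0.93 on the log2 scale (SE 0.095, adjusted p = 1.45e-07).

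Ctsa (ENSMUSG00000017760, chromosome 2 from 164832873 to 164841032, forward strand) encodes cathepsin A, which protects β-galactosidase and neuraminidase 1 in a complex. It was counted at 80.8, 70.4 and 80.5 CPM in J110 and at 56.6, 49.5 and 52.3 CPM in SSM3. The log2 fold change was -0.55 (SE 0.094, adjusted p = 5.54e-05). This value is uncertain because of a gene on the other strand, described below.

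**Figure D2:**
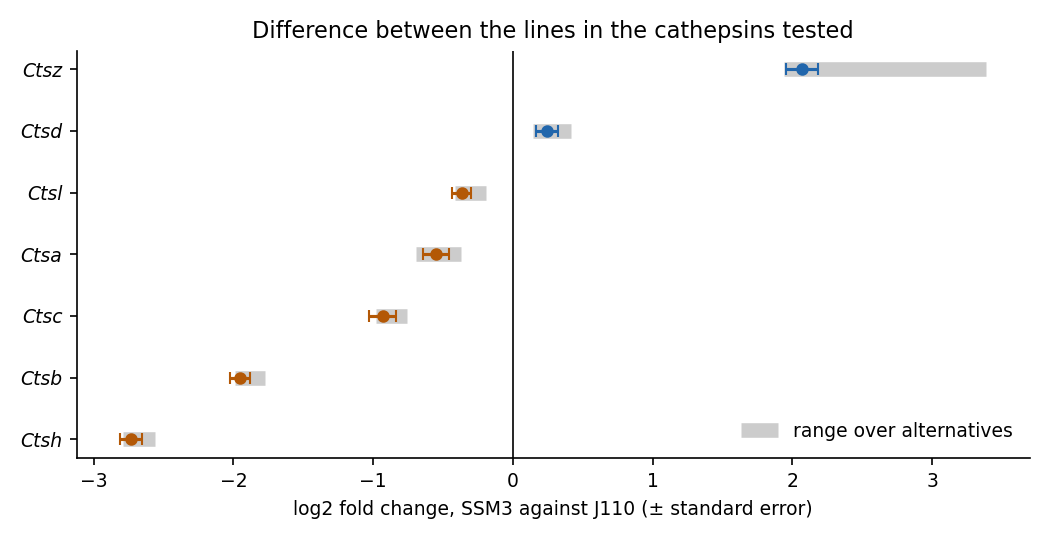
log2 fold change, SSM3 against J110 (horizontal axis), of the 7 cathepsins tested, with points for the estimate, bars for its standard error and grey bands for the range over the alternatives to the processing. Ctsh and Ctsb lie lowest at -2.73 and -1.95 and Ctsz highest at 2.07, and no band crosses 0.

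The other 3 members were at the floor in both lines. Ctsf (ENSMUSG00000083282, chromosome 19 from 4855130 to 4860918), a cysteine cathepsin, had 1 count in J110 replicate 2 and 1 in SSM3 replicate 1. Ctsk (ENSMUSG00000028111, chromosome 3 from 95499256 to 95509362), the collagen-degrading cathepsin of osteoclasts, had no count in J110 and 1, 2 and 0 counts in SSM3. Ctss (ENSMUSG00000038642, chromosome 3 from 95526786 to 95556403), which trims the invariant chain of MHC class II molecules in antigen-presenting cells, had no count in any library, which allows up to 0.668 CPM in the shallowest. Ctsk and Ctss lie next to each other in the same orientation. At this depth no difference between the lines was detectable for these genes.

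Together the 10 genes reached 2544 ± 100.1 CPM in J110, against 1683 ± 59.5 CPM for SSM3 (SD, n = 3 each), a 1.51-fold higher sum in J110 for which no test was made. The order of the genes differed between the lines. In J110 Ctsl and Ctsh stood highest and overlapped each other, followed without overlap by Ctsd and then Ctsb, by Ctsc and Ctsa, which overlapped each other, and by Ctsz. In SSM3 Ctsd stood highest, then Ctsl, Ctsz, Ctsb, Ctsh, Ctsa and Ctsc, with no overlap between neighbours. Ctsb and Ctsh made up 44.3% ± 1.45 (SD, n = 3) of the sum in J110 and 12.9% ± 0.586 (SD, n = 3) in SSM3. Ctsd alone was 20.8% ± 1.63 of the sum in J110 and 37.2% ± 0.709 in SSM3, and Ctsz 2.04% ± 0.283 and 13.0% ± 1.06 (SD, n = 3 each). Ctsa was between 2.71% and 3.45% in each library. The order and the shares rest on all counts, including those of shared exons described below. With these subtracted in both lines, Ctsb and Ctsh made up 44.2% ± 1.54 in J110 and 7.30% ± 0.477 in SSM3, Ctsz 0.390% ± 0.114 and 6.96% ± 0.486, and Ctsa 0.578% ± 0.153 and 0.605% ± 0.112 (SD, n = 3 each). Ctsz then overlapped Ctsh in SSM3 and Ctsa in J110, Ctsa lay below Ctsc in both lines, and Ctsb had no count left in SSM3.

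**Figure D3:**
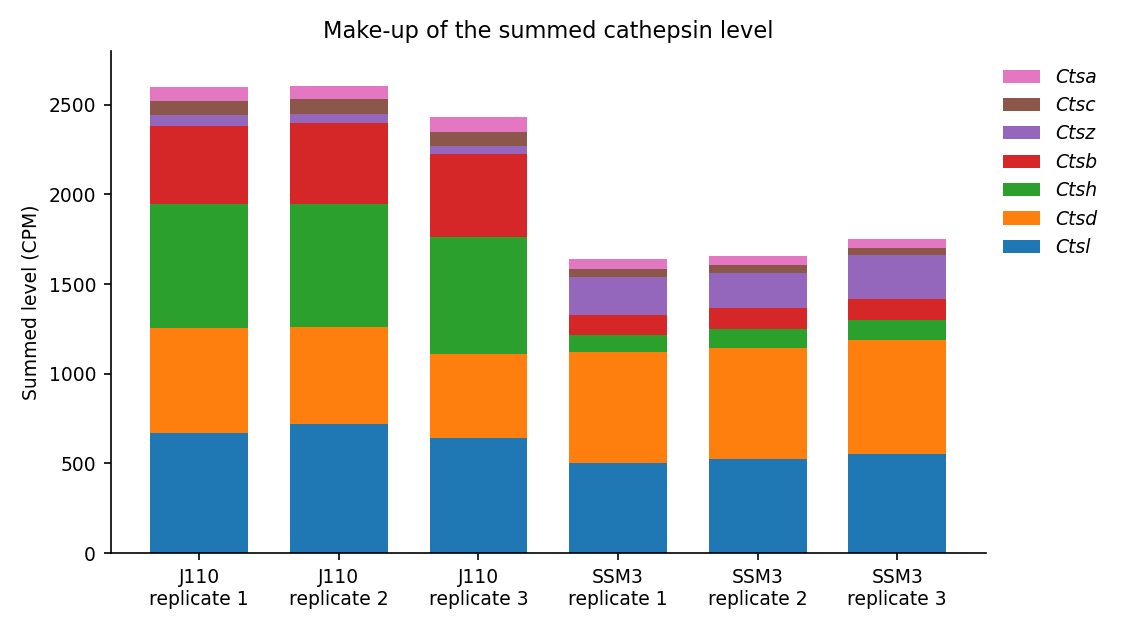
Summed level of the 7 cathepsins tested in CPM (vertical axis) in each of the 6 libraries, with each colour showing the CPM of 1 gene. The J110 bars reach 2428 to 2603 CPM with Ctsh and Ctsb as large parts, and the SSM3 bars reach 1641 to 1751 CPM with mostly Ctsd, Ctsl and Ctsz.

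Ratios of counts within a library do not depend on the scaling between libraries. There were 1.18, 1.28 and 1.40 Ctsh counts for each Ctsd count in J110 and 0.149, 0.172 and 0.167 in SSM3. For Ctsb the ratio to Ctsd was 0.745, 0.839 and 0.994 in J110 and 0.179, 0.192 and 0.186 in SSM3. The ratio of Ctsz to Ctsb turned over, from at most 0.14 in J110 to 1.92, 1.66 and 2.07 in SSM3. None of these ratios overlapped between the lines, and those with Ctsb or Ctsz include counts of shared exons.

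Of the 7 cathepsins tested, 5 share exon sequence with another counted gene, and the sources used here do not name the strand setting of the counting. Reads of such genes cannot be told apart. Csf1r and Hmgxb3, which share exons on opposite strands, had equal counts in 5 of 6 libraries. Ctsa shares 495 exon bases within chr2:164839518-164840537 with the 3′ end of Pltp, a phospholipid transfer protein gene on the opposite strand. Pltp had 321, 301 and 323 counts in J110 and 207, 196 and 223 in SSM3, beside 419, 356 and 386 and 254, 233 and 263 counts of Ctsa. With the counts of Pltp and of Neurl2, which shares 324 bases at the start of Ctsa, subtracted, 92, 53 and 59 counts of Ctsa were left in J110 and 45, 36 and 38 in SSM3, and the log2 fold change was -0.69. With the subtraction made in J110 only, from 10.5 to 17.7 CPM were left there, below the SSM3 level, so the direction of Ctsa does not hold at that extreme.

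Ctsb shares its last 774 bases (chr14:63145150-63145923) with the 3′ end of Fdft1, the squalene synthase gene on the opposite strand. Fdft1 had 470, 516 and 461 counts in J110 and 824, 757 and 808 in SSM3, more than the 499, 558 and 596 counts of Ctsb in SSM3. Without any count that could be shared, Ctsb still had from 344 to 367 CPM in J110, above the 119 CPM of its highest SSM3 library. The lower level in SSM3 thus holds at either extreme, while its size is uncertain because all SSM3 counts could be shared ones. Ctsz shares 10 bases at its 3′ end (chr2:174427493-174427502) with the 3′ end of Nelfcd on the opposite strand, which had 255, 215 and 178 counts in J110 and 500, 502 and 745 in SSM3. With these subtracted Ctsz had from 90.7 to 102 CPM in SSM3, above the 60.7 CPM of its highest J110 library. Ctsl shares exons with Gm47123 and the pseudogene Gm49230, which together had at most 1.54% of its counts, and Ctsd with Gm49369, which had at most 2 counts in any library.

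**Figure D4:**
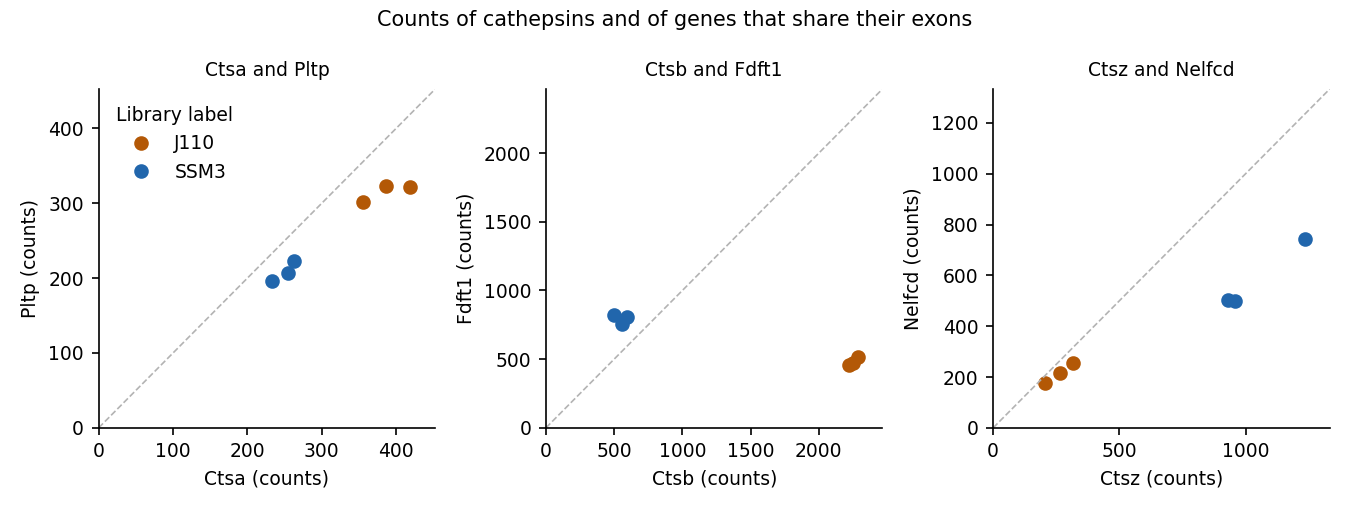
Counts of Ctsa, Ctsb and Ctsz (horizontal axes) against those of Pltp, Fdft1 and Nelfcd, which share their exons on the opposite strand (vertical axes), with 1 point per library and a dashed line at equal counts. Pltp counts are higher in all J110 than in all SSM3 libraries, as those of Ctsa are, Nelfcd counts are higher in all SSM3 libraries, as those of Ctsz are, and Fdft1 counts exceed those of Ctsb in the 3 SSM3 libraries.

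RefSeq promoter windows (GRCm38.p6) are shown for Ctsd and Ctsz, the members higher in SSM3, and for Ctsl, the most abundant member lower there. Each has 250 bases before and 50 after an annotated start, 5′ to 3′ on the strand of the gene. Capitals mark CACGTG (an E-box) and GGGCGG (the Sp1 motif), searched on both strands. Ctsd is chr7:142387778-142388077 and Ctsz chr2:174438990-174439289, both on the reverse strand, as is Ctsl at chr13:64370471-64370770. The Ctsl window lies inside the gene as placed above, whose 5′ end is at 64370890. Its E-box is thus past that end.
Ctsd: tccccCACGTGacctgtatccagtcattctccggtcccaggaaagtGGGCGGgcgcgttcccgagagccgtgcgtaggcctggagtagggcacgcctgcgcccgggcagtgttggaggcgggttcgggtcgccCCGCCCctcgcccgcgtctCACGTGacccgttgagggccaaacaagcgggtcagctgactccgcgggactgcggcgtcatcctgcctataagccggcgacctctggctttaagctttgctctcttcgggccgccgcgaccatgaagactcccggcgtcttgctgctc
Ctsz: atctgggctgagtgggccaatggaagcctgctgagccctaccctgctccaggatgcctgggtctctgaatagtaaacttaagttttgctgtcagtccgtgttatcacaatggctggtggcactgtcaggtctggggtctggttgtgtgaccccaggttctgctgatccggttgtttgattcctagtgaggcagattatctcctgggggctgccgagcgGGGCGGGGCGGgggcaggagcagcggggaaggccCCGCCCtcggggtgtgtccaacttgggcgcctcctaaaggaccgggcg
Ctsl: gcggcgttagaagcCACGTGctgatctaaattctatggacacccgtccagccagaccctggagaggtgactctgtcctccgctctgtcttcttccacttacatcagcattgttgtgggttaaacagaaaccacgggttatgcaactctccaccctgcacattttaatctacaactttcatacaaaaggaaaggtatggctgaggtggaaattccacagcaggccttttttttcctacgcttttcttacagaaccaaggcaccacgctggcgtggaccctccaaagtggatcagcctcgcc

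Windows were found for 8 of the 10 cathepsins, 9 windows in all, and not for Ctsb and Ctsh. The E-box, which the MiT/TFE factors of lysosomal genes and many other factors bind, was in 4 of the 9 windows (Ctsa, Ctsd, Ctsf and Ctsl) and in 7.15% of all 32851 windows. The E-boxes of Ctsa were in a window inside the gene, and its other window, at the gene's 5′ end, held none. The Ctsl window also lies inside its gene, and Ctsf was at the floor in both lines. Ctsd held 2 E-boxes and 2 Sp1 motifs. Ctsz held no E-box and 3 Sp1 motifs, of which 2 share a base and 1 lies past the start. The Sp1 motif was in 5 of the 9 windows and in 35.7% of all windows. The CLEAR element was searched only as an E-box with GT before and AC after it. The palindromic estrogen response element was searched only as GGTCA and TGACC with 3 bases between. In these exact forms they were in none of the 9 windows, and in 0.326% and 0.070% of all windows. Sites that differ from these forms were not counted. The E-boxes of Ctsd had AC after them but not GT before, as had 1 of Ctsa. The other E-box of Ctsa had GT before it but not AC after. Members with and without an E-box were found among those higher and those lower in SSM3.

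Of 12 further cathepsin genes, 2 could be tested and both were lower in libraries labelled SSM3, where 77.9% of all genes tested were called and 39.2% called lower. Ctse, an aspartic protease outside the lysosome, had a J110 level of 33.1 ± 2.72 CPM and an SSM3 level of 13.8 ± 2.19 CPM (SD, n = 3 each), a difference of -1.26 on the log2 scale (SE 0.15, adjusted p = 8.66e-07, edgeR). Ctso had 24, 20 and 29 counts in J110 and 0, 11 and 9 in SSM3, a difference of -1.77 on the log2 scale (SE 0.48, adjusted p = 0.00314). It was -1.23 without SSM3 replicate 1, the library with no count, -2.33 without SSM3 replicate 2 and -2.56 with limma-voom. Another 9 of the 12 were at the floor in both lines, Ctsg and the genes of the placental cluster Cts3, Cts6, Cts7, Cts8, Ctsj, Ctsm, Ctsq and Ctsr, close relatives of Ctsl. Ctsw, a cathepsin of cytotoxic lymphocytes, had 7, 3 and 9 counts in J110 and none in SSM3, too few to be tested.

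Of 11 genes of cysteine cathepsin inhibitors 3 were tested, 1 of them higher and 2 lower in SSM3, beside 38.6% higher and 39.2% lower among all genes tested. Their median log2 fold change was -1.41, beside -0.014 over all genes. Cst3, the secreted cystatin C, rose from 76.5 ± 10.7 to 124 ± 10.3 CPM (SD, n = 3 each), a difference of 0.70 on the log2 scale (SE 0.10, adjusted p = 1.09e-05). Cstb, the cytosolic cystatin B, was lower in SSM3, at 135 ± 24.3 CPM beside 359 ± 13.4 CPM in J110 (SD, n = 3 each, log2 fold change -1.41, SE 0.10, adjusted p = 2.21e-09). There were 0.256, 0.184 and 0.202 Cst3 counts for each Cstb count in J110 and 0.823, 0.820 and 1.18 in SSM3, with no overlap. Cst6, the cystatin M gene, had 17, 12 and 18 counts in J110 and 1, 2 and 0 in SSM3, at least 4.69-fold lower in SSM3. The stefins Stfa1, Stfa2 and Stfa3 had no count.

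Of 8 genes that sort and mature lysosomal proteases, 7 were lower and 1 higher in SSM3, beside 39.2% lower and 38.6% higher among all genes tested. Their median log2 fold change was -1.06, beside -0.014 over all genes. Gnptab and Gnptg, subunits of the enzyme that starts the mannose 6-phosphate tag, fell by 1.56 (SE 0.13, adjusted p = 1.10e-08) and 1.04 (SE 0.14, adjusted p = 3.17e-06) on the log2 scale. Gnptg shares exons with Unkl on the opposite strand and is uncertain. Both receptors of the tag were lower, M6pr with 521, 516 and 521 counts in J110 beside 253, 235 and 209 in SSM3, and Igf2r with 162, 162 and 144 beside 84, 76 and 35. Lgmn, the asparaginyl endopeptidase that matures several cathepsins, fell by 1.32 (SE 0.19, adjusted p = 9.59e-06), and Psap, the saposin precursor, by 0.80 (SE 0.073, adjusted p = 3.82e-08). Nagpa, the enzyme that uncovers the tag, fell by 0.45 with an adjusted p of 0.0103, and did not pass with library size scaling (adjusted p = 0.108), DESeq2 (adjusted p = 0.0537) or glmTreat (adjusted p = 0.788).

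Sort1, which encodes sortilin, a sorting receptor that does not need the tag, went the other way in each library. It had 4, 4 and 3 counts in J110 and 172, 179 and 198 in SSM3, a difference of 5.67 on the log2 scale (SE 0.22, adjusted p = 7.05e-13, edgeR). The J110 counts are at 0.729 ± 0.090 CPM (SD, n = 3), close to the floor.

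The partners of cathepsin A in its complex gave no call among 3 tested, beside 77.9% of all genes called: Neu1 was counted at 53.8 ± 3.13 and 57.1 ± 1.12 CPM, Glb1 at 23.7 ± 4.69 and 24.1 ± 1.80 CPM, and Galns at 9.10 ± 0.866 and 11.7 ± 1.49 CPM in J110 and SSM3 (SD, n = 3 each), with adjusted p values of 0.398, 0.907 and 0.0989. With library size scaling Neu1 and Galns were called higher in SSM3, with log2 fold changes of 0.26 and 0.53. Of the 4 MiT/TFE genes, which encode transcription factors of lysosomal genes, Mitf had 35, 40 and 44 counts in J110 and 10, 2 and 1 in SSM3, a difference of -3.08 on the log2 scale (SE 0.45, adjusted p = 9.26e-06), which ranged from -4.57 without SSM3 replicate 1 to -2.58 without SSM3 replicate 3. Tfeb had 9, 8 and 8 counts in J110 and 20, 15 and 20 in SSM3, a difference of 1.21 on the log2 scale (SE 0.32, adjusted p = 0.00271). Tfe3 had a log2 fold change of 0.31 with an adjusted p of 0.0746. It passed the test with library size scaling (0.48, adjusted p = 0.00729), without SSM3 replicate 2 (adjusted p = 0.0415) and without J110 replicate 3 as well (adjusted p = 0.0385). Tfec had no count.

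Ctss is known for its work on MHC class II molecules, whose genes were low as well. Of 7 such genes 5 were at the floor in both lines, with H2-Aa at no count, Cd74 at 1 count in all and H2-Ab1 at 1. H2-DMb1, a subunit of the peptide-loading chaperone, had 1, 0 and 3 counts in J110 and 71, 65 and 85 in SSM3, at least 24.8-fold higher in SSM3. H2-DMa, the other subunit, had 3, 3 and 0 counts in J110 and 20, 9 and 17 in SSM3, at least 5.19-fold higher, but it shares exons with Brd2 on the opposite strand and is uncertain. The median log2 fold change of these 2 genes was 4.34 as fitted and 3.50 with both at their bounds.

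**Figure D5:**
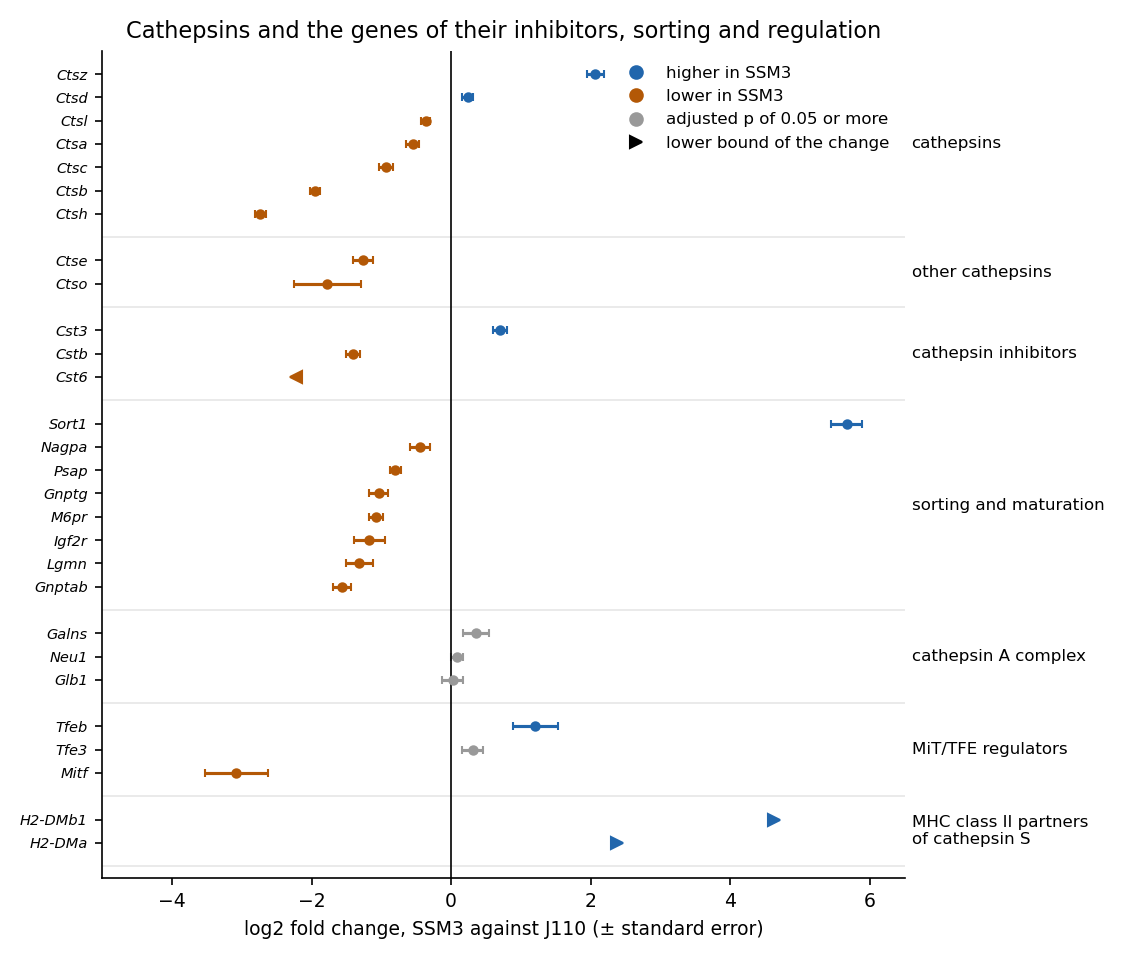
log2 fold change, SSM3 against J110 (horizontal axis), of each tested gene in the cathepsin lists, with points for the estimate, bars for its standard error, colours for the call and triangles for lower bounds of genes at the floor in one line. The sorting and maturation genes lie between -1.56 and -0.45 except Sort1 at 5.67, and the 3 partners of cathepsin A lie near 0.

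Several cathepsins are abundant in macrophages and osteoclasts, so markers of other cell types were counted. In bulk libraries fewer cells of a type and less RNA per cell cannot be told apart. Of 10 leukocyte and macrophage markers 3 were tested, of which Cd68 and Cd14 were lower in libraries labelled SSM3, with log2 fold changes of -3.70 and -1.52, and Csf1r, whose counts equal those of Hmgxb3 in 5 of 6 libraries, was not called, beside 77.9% of all genes tested called and 39.2% called lower. The summed level of the 10 markers was 48.6 to 64.9 CPM in J110 and 20.1 to 26.3 CPM in SSM3. Of the other 7 markers, Adgre1, Itgam, Aif1 and C1qa had no count, Ptprc had 2 counts in SSM3 replicate 2, Fcgr1 had 2 in J110 replicate 1, and Lyz2 had 6, 10 and 0 counts in J110 and none in SSM3. Cd68, itself a lysosomal membrane protein, had 115, 95 and 70 counts in J110 and 9, 5 and 6 in SSM3, where Ctsb and Ctsh were also lower, and its part in that result was not tested. All 4 osteoclast markers were at the floor in both lines. Of 5 fibroblast markers 3 were at the floor in both, and their summed level was at most 1.98 CPM in any library.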

How the data were processed

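The libraries held 3′ ends of RNA from 3 biological replicates of each line, J110 and SSM3. Per the submitters' processing notes and the study's methods, the authors trimmed reads with cutadapt (2.1), mapped them to mm10 with HISAT2 (2.0.4), counted them with featureCounts of Subread (2.0.0) and deposited raw counts, with no normalisation. The annotation, strand setting and handling of shared reads are not given in the sources used here. Of the gene identifiers, 52489 (99.7%) matched GENCODE vM21 (GRCm38, the mm10 build), which gave symbols and positions.

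After filterByExpr (minimum count 10) and TMM scaling, the lines were compared by quasi-likelihood in edgeR (4.0.16, R 4.3.3, limma 3.58.1), with Benjamini-Hochberg adjustment over all 12284 genes tested and a threshold of 0.05. Adjusted p values in the text are from this test unless another is named. The standard error is the size of the log2 fold change over the square root of F. P-values measure the spread between cultures of 1 line each. Total counts ranged from 4200785 to 5416305, and 3 counts correspond to at most 0.668 CPM. The test was tried on simulated counts.

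The members and lists were chosen with earlier results of these data known. All members were named, and from each list up to 3 genes past the threshold in each direction, genes at the floor in one line and genes sharing exons with a member. Further list genes were picked with their values in view. Exon overlaps were found with bedtools (2.31.1). Alternatives were DESeq2 (1.42.0), limma-voom, other scalings, filters, thresholds and depths, a block for replicate number, and fits without single libraries. Subtraction of exon-sharing counts was added after seeing the data. A comparison of the proteins was planned but not made, and no protein sequence was used here. 1 gene and 1 motif that were also looked up are not reported here.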

Additional observations from a re-analysis of the deposited data

How the results depend on the processing

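With shared counts subtracted in J110 only the direction of Ctsa did not hold, while the direction of all 7 cathepsins held under each of the alternatives fitted, subtraction in both lines among them. There were 20 such alternatives for each gene and 19 for Ctsb, for which this subtraction left no SSM3 count and gave no value. The calls of Ctsb, Ctsc, Ctsh and Ctsz also held under all of them. With glmTreat above 1.5-fold the number of genes called fell from 9566 to 6336, and 1 cathepsin was higher and 3 were lower in SSM3. The count higher was also 1 at an adjusted p below 0.01 and without J110 replicate 3 and SSM3 replicate 2 together, Ctsd being lost each time. Leaving out each library in turn gave 1 to 2 cathepsins higher, with 1 only without J110 replicate 3. The summed level, SSM3 against J110, differed by -0.60 on the log2 scale, by -0.42 with library size only and by -0.74 with exon-sharing counts subtracted. The cause of these shifts was not tested. Ctsa and Ctsl passed all alternatives but glmTreat, where their adjusted p was 0.554 and 1.0. Replicate numbers did not pair the libraries, as deviations from the line means correlated by 0.012, 0.015 and 0.027, and with the replicate block 9481 genes were called, with 2 cathepsins higher and 5 lower. Depth limits Ctsf, Ctsk and Ctss, at 3 counts or fewer in each library.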
